A study of Anas platyrhynchos with 6 samples.

Results

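Names of 3 miRNAs that are known from blood vessels, miR-126, miR-221 and miR-222, were taken from duodenum small RNA libraries of ducks. By name, without the species prefix, 43 of the 1568 miRNA names in each library belonged to them, 15 to miR-126, 15 to miR-221 and 13 to miR-222. The CR group comprised 3 libraries from ducks moved into cages, and the TB group comprised 3 libraries from ducks kept on the floor in the traditional way. All were Nonghu No. 2 ducks selected at 90 days of age and sampled after a trial of 10 days. No other treatment was described, and by the methods the surroundings and the amount of food given were alike. The paper nevertheless reported lower food intake and body weight in the CR ducks. How many ducks gave each library was not stated, so p-values measure the spread between these libraries.

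In vertebrates miR-126 lies in an intron of EGFL7, a gene of endothelial cells, and it is known in mouse and zebrafish for keeping vessels intact, in part by lowering SPRED1, an inhibitor of growth factor signalling. miR-221 and miR-222 are known from mammals as neighbours in one cluster that are cut from a common transcript, share their seed and lower KIT and CDKN1B. They occur in endothelium, but also in dividing smooth muscle and epithelium, so that only miR-126 is a marker of endothelial cells. Each hairpin gives a 5p and a 3p arm, one of which is usually kept by the cell in larger amount.

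Summed over all names, the libraries held between 1500905 reads (CR replicate 2) and 11395209 reads (CR replicate 1). A value in RPM is reads of a name per 1000000 reads of all names, without a correction for length. A single read stood for 0.666 RPM in the shallowest library and for 0.0878 RPM in the deepest. Intervals from reads cover counting error only, since the files carry no molecular identifiers. CR replicate 2 and TB replicate 1 stood apart from the other 4 libraries over all 662 tested names, with a correlation of 0.968 to each other and of 0.737 to 0.818 to the rest. In both of them 379 of the tested names (57.3%) were higher than in each of the other 4 libraries, and 144 (21.8%) were lower. The labels call the cells intestinal epithelial cells. The 8 epithelial markers were all present, at a summed 38722 to 137934 RPM in CR and 49794 to 186730 RPM in TB. The 2 smooth muscle markers (miR-143, miR-145) summed as high, at 91168 to 198015 RPM in CR and 118822 to 162156 RPM in TB. Nearly all of this sum was miR-143, since miR-145 was at 559 to 941 RPM in CR and 577 to 1490 RPM in TB. Both tissues thus had an abundant marker. The endothelial list held miR-126 only and gives no check of its own. In such bulk samples fewer cells of a type and less RNA per cell cannot be told apart.

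The 43 names held 29 distinct sets of reads. All 43 had at least 1 read, and 28 names, or 18 distinct sets, passed the requirement of 10 reads in 3 libraries. The other 11 sets had 2 to 38 reads over all 6 libraries. Names of different species often stood for the same reads. The human name hsa-miR-221-3p shared its reads with the cow, carp and Tasmanian devil names bta-miR-221, ccr-miR-221 and sha-miR-221. The human name hsa-miR-222-3p shared its reads with the chicken name gga-miR-222a.

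Arm labels did not always name the same molecule. The king cobra name oha-miR-126-5p had 16722, 959 and 7363 reads in CR replicates 1 to 3 and 2676, 11605 and 7158 reads in TB replicates 1 to 3. The mouse name mmu-miR-126a-3p had 16342, 934 and 7256 reads in CR and 2590, 11299 and 7020 reads in TB. The cobra name was thus at 101% to 103% of the 3p name in every library, although it is labelled 5p. Conversely, oha-miR-126-3p had exactly the reads of mmu-miR-126a-5p and mmu-miR-126b-3p, and within 1 read in each library those of the zebra finch name tgu-miR-126-5p. Likewise efu-miR-221, a bat name without an arm, had the reads of mmu-miR-221-5p. The miR-126 arms are given here under mmu-miR-126a-3p and tgu-miR-126-5p, a choice made after the values were seen.

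miR-126-3p (mmu-miR-126a-3p) was the more abundant arm of miR-126 in all 6 libraries and did not separate the groups. It had 1434, 622 and 726 RPM in CR replicates 1 to 3 and 454, 1210 and 779 RPM in TB replicates 1 to 3. The highest value was in CR replicate 1, the lowest in TB replicate 1, and the groups overlapped. The means were 927 ± 442 RPM in CR and 814 ± 379 RPM in TB (SD, n = 3 each). The log2 fold change was 0.20 with a standard error of 0.61 (95% interval -1.27 to 1.67, adjusted p = 0.999, limma). Its direction turned to -0.16 without CR replicate 1 and to -0.17 without TB replicate 1.

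miR-126-5p (tgu-miR-126-5p) was the steadiest of the arms. It had 175, 216 and 114 RPM in CR replicates 1 to 3 and 148, 124 and 120 RPM in TB replicates 1 to 3, a range of 1.90-fold over the 6 libraries. CR held both the highest and the lowest of these values. The means were 168 ± 51.5 RPM in CR and 130 ± 15.2 RPM in TB (SD, n = 3 each), and the log2 fold change was 0.32 with a standard error of 0.54 (95% interval -1.0 to 1.64, adjusted p = 0.999, limma). The zebrafish name dre-miR-126a-3p, also held by the medaka name ola-miR-126-3p, followed the 3p arm at 27.0% to 34.8% of its reads. The mouse name mmu-miR-126b-5p was near the limit of detection, at 2.28, 4.66 and 1.30 RPM in CR and 1.40, 1.82 and 1.66 RPM in TB, from 7 to 26 reads a library.

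**Figure D1:**
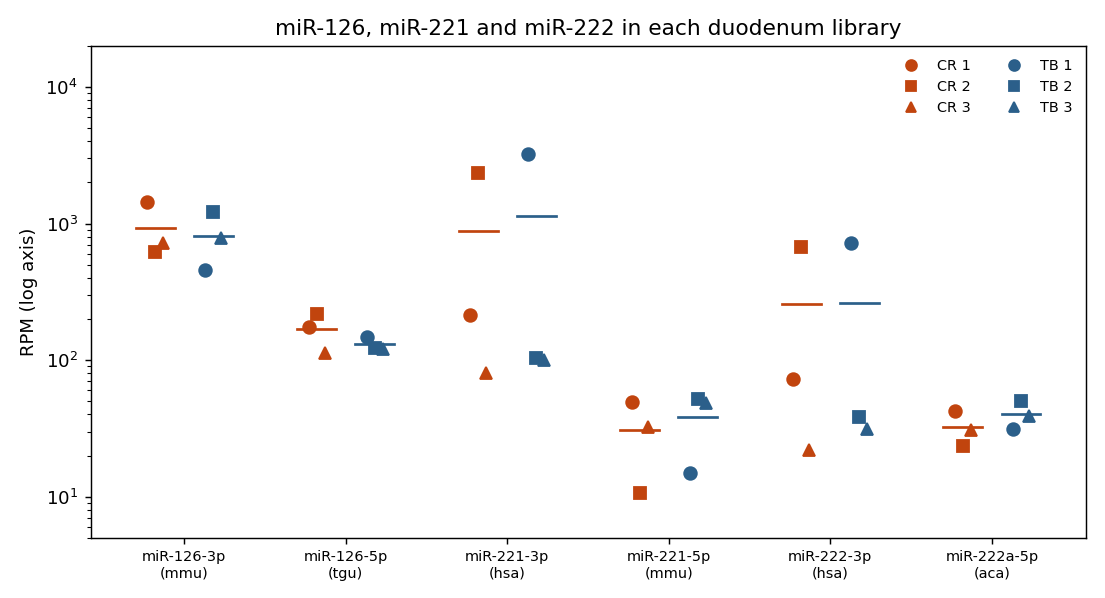
Each point is the level of 1 arm in 1 library (RPM, log axis), with CR left of TB for each arm and a line at the group mean; mmu, tgu, hsa and aca are the species prefixes of the names plotted. For miR-221-3p and miR-222-3p, CR replicate 2 and TB replicate 1 lie far above the other libraries, whereas miR-126-5p stays between 114 and 216 RPM.

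The 3p arm of miR-221 (hsa-miR-221-3p) varied 39.9-fold over the libraries, more than any arm of miR-126. It had 215, 2347 and 80.6 RPM in CR replicates 1 to 3 and 3218, 104 and 100.2 RPM in TB replicates 1 to 3. CR replicate 2 and TB replicate 1 were the 2 high libraries, 1 in each group. CR replicate 1 lay between them and the remaining 3. The means, 881 ± 1272 RPM in CR and 1141 ± 1799 RPM in TB (SD, n = 3 each), therefore had SDs larger than themselves. The log2 fold change was 0.09 with a standard error of 1.82 (95% interval -4.31 to 4.50, adjusted p = 0.999, limma), while the mean on the linear scale was lower in CR. Its direction turned to -0.09 in limma on TMM-scaled values. In edgeR with TMM, which differs from limma in the model as well as in the scaling, it was -0.84. Without both CR replicate 2 and TB replicate 1 it was 0.37 with a standard error of 0.48 (adjusted p = 0.997, limma).

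The 3p arm of miR-222 (hsa-miR-222-3p) followed the same libraries at a lower level. It had 72.4, 674 and 21.8 RPM in CR replicates 1 to 3 and 717, 38.4 and 31.1 RPM in TB replicates 1 to 3. Again CR replicate 2 and TB replicate 1 were high, and CR replicate 1 came next. The means were 256 ± 363 RPM in CR and 262 ± 394 RPM in TB (SD, n = 3 each), with a log2 fold change of 0.11 and a standard error of 1.71 (95% interval -4.04 to 4.25, adjusted p = 0.999, limma). It was -0.53 in edgeR with TMM, -0.09 in limma on TMM-scaled values, and 0.20 with a standard error of 0.49 without both high libraries (adjusted p = 0.997, limma).

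The 5p arms did not share this rise in CR replicate 2 and TB replicate 1. miR-221-5p (mmu-miR-221-5p) had 49.5, 10.7 and 32.5 RPM in CR replicates 1 to 3 and 14.9, 52.3 and 48.8 RPM in TB replicates 1 to 3. The libraries highest for the 3p arm were here the lowest, with a 95% Wilson interval of 6.56 to 17.3 RPM in CR replicate 2, from 16 reads. miR-222-5p (aca-miR-222a-5p, a green anole name) had 42.1, 23.3 and 31.0 RPM in CR and 31.5, 50.2 and 39.3 RPM in TB. CR replicate 2 was its lowest library, but TB replicate 1 lay within the range of the others. The group means were 30.9 ± 19.5 RPM in CR and 38.7 ± 20.7 RPM in TB for miR-221-5p, and 32.1 ± 9.45 RPM in CR and 40.3 ± 9.39 RPM in TB for miR-222-5p (SD, n = 3 each). The log2 fold changes were -0.37 with a standard error of 0.88 for miR-221-5p and -0.33 with a standard error of 0.61 for miR-222-5p, and neither passed the test (adjusted p = 0.999 for both, limma). For miR-221-5p the direction turned to 0.24 without CR replicate 2.

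The balance of the arms was set side by side as log2((5p + 1)/(3p + 1)), which does not depend on the scaling of a library apart from the 1 RPM added. For miR-221 it was -2.10, -7.65 and -1.28 in CR replicates 1 to 3 and -7.66, -0.98 and -1.02 in TB replicates 1 to 3. In reads, the 3p arm was 220 times the 5p arm in CR replicate 2 and 216 times in TB replicate 1, against 1.99 to 4.35 times in the other libraries. The balance was taken for 49 pairs of a tested 5p name and a tested 3p name. Among these pairs miR-221 had the widest range over the libraries, 6.69 on the log2 scale, where the median range was 2.08. Some miRNAs entered more than once, such as miR-199 and miR-199a with equal balances. The pairs of miR-9 and of miR-126 as labelled had nearly equal reads under both arms, with ranges of 0.0022 and 0.026. The range of miR-221 is a description, with no test.

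For miR-222 the balance was -0.77, -4.80 and 0.49 in CR replicates 1 to 3 and -4.46, 0.38 and 0.33 in TB replicates 1 to 3. The arm in excess thus differed between libraries. The 5p arm was the higher one in CR replicate 3 and TB replicates 2 and 3, and the 3p arm in the other libraries, by 28.9 times in CR replicate 2 and 22.8 times in TB replicate 1. Its range of 5.28 was the 4th widest of the 49.

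For miR-126 the balance moved the other way. It was -3.03, -1.52 and -2.66 in CR replicates 1 to 3 and -1.61, -3.28 and -2.69 in TB replicates 1 to 3, so the excess of the 3p arm was smallest in CR replicate 2 (2.88 times) and TB replicate 1 (3.07 times), against 6.39 to 9.79 times elsewhere. Its range of 1.76 was exceeded by 29 of the 49 pairs. With the names as labelled, oha-miR-126-5p over mmu-miR-126a-3p, the balance was 0.02 to 0.05 in all libraries, which is the overlap of reads described above and not a comparison of arms.

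No difference in balance between CR and TB was larger than the spread of the libraries. With 3 against 3 the exact permutation test cannot give a p under 0.1, so it could not have called a difference at 0.05. The mean balance of miR-221 was -3.68 ± 3.47 in CR and -3.22 ± 3.85 in TB, a difference of -0.46 (SD, n = 3 each; two-sided exact permutation test, p = 0.6). That of miR-222 was -1.69 ± 2.76 in CR and -1.25 ± 2.78 in TB, a difference of -0.44 (exact permutation test, p = 0.7). That of miR-126 was -2.41 ± 0.79 in CR and -2.53 ± 0.85 in TB, a difference of 0.12 (exact permutation test, p = 0.7), and with the names as labelled the difference was -0.0071 (exact permutation test, p = 0.4). Adjusted over the 49 pairs, each of the 3 labelled differences had p = 1.0 (exact permutation test). Without both CR replicate 2 and TB replicate 1 the difference was -0.69 for miR-221, -0.49 for miR-222 and 0.14 for miR-126. Leaving out CR replicate 2 alone turned the differences to 1.53 for miR-221, 1.11 for miR-222 and -0.32 for miR-126.

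**Figure D2:**
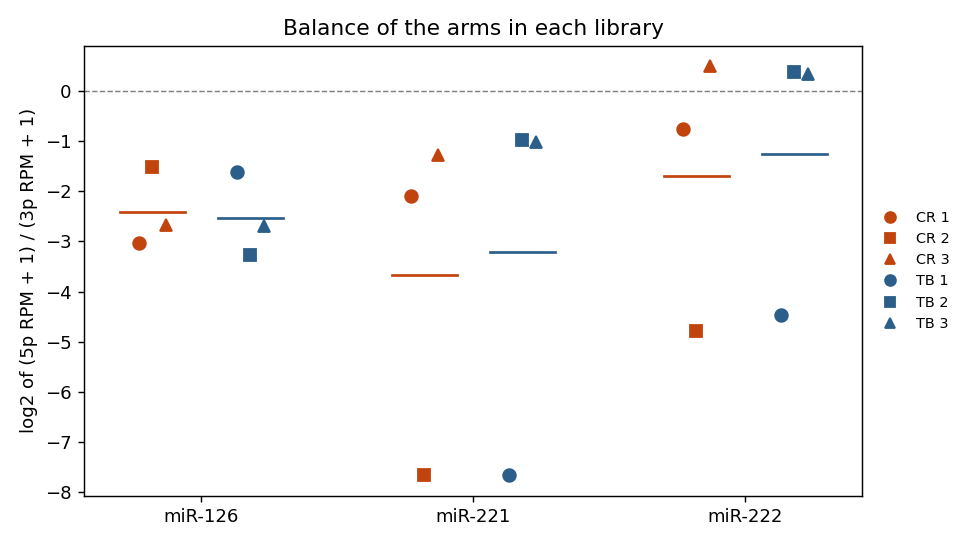
Each point is log2((5p RPM + 1)/(3p RPM + 1)) in 1 library, with CR left of TB and a line at the group mean; miR-126 is drawn from tgu-miR-126-5p and mmu-miR-126a-3p. The dashed line at 0 marks equal arms: miR-221 reached -7.65 in CR replicate 2 and -7.66 in TB replicate 1, and miR-222 was above 0 in 3 libraries.

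While their levels varied 39.9-fold and 32.9-fold, the 3p arms of miR-221 and miR-222 kept a close ratio. A shared pattern was not particular to this pair. Pearson's r on log2(RPM + 1) was 0.996 between them. That of hsa-miR-30d-5p was 0.998 with miR-221-3p and 0.999 with miR-222-3p. In reads, miR-221-3p was 2.97, 3.48 and 3.70 times miR-222-3p in CR replicates 1 to 3 and 4.49, 2.70 and 3.23 times in TB replicates 1 to 3. With 1 RPM added to both levels, the ratio had a 1.69-fold range. As log2((miR-221-3p + 1)/(miR-222-3p + 1)) the ratio averaged 1.73 ± 0.15 in CR and 1.74 ± 0.39 in TB, a difference of -0.01 (SD, n = 3 each; two-sided exact permutation test, p = 1.0). The difference was 0.20 without TB replicate 1 and 0.17 without both it and CR replicate 2, so its sign rests on single libraries. The 5p arms were at near equal levels in the 4 other libraries, where miR-221-5p was 1.04 to 1.24 times miR-222-5p, but at 0.457 times in CR replicate 2 and 0.472 times in TB replicate 1.

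**Figure D3:**
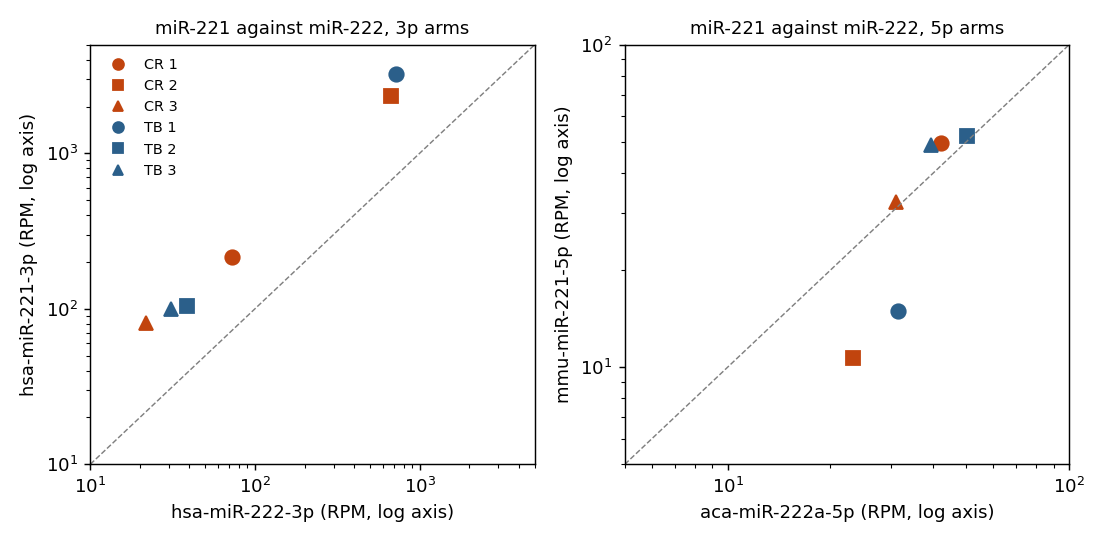
Levels of miR-221 against miR-222 in the 6 libraries (RPM, log axes) for the 3p arms at left and the 5p arms at right, with a dashed line of equal levels. The 3p arms stay 2.70 to 4.49 times above equality over the whole range, and for the 5p arms CR replicate 2 and TB replicate 1 fall below it.

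The order of the miRNAs changed with the library. miR-126-3p was above miR-221-3p in CR replicates 1 and 3 by 6.66 and 9.0 times and in TB replicates 2 and 3 by 11.7 and 7.77 times. In CR replicate 2 and TB replicate 1 it was at 0.265 and 0.141 times miR-221-3p. Among the 830 distinct sets of reads, miR-126-3p stood at place 51 and 59 in CR replicates 1 and 3 and at place 51 and 59 in TB replicates 2 and 3, but at place 118 in CR replicate 2 and 116 in TB replicate 1. miR-221-3p stood at place 64 in CR replicate 2 and 48 in TB replicate 1, and between 117 and 144 in the others.

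Of the 18 tested sets of reads, 6 were higher in both CR replicate 2 and TB replicate 1 than in each other library and 6 were lower, against 57.3% and 21.8% of all tested names. The 6 higher ones comprised the 3p arms of miR-221 and miR-222, pma-miR-221, ola-miR-222 and 2 names of miR-222b, and the 6 lower ones were 4 sets of miR-126 and 2 of miR-221-5p. These sets are not all separate molecules. In CR replicate 1 the 2 of miR-221-5p had 564 and 562 reads, and mmu-miR-126a-3p and bta-miR-126-3p had 16342 and 16343. The percentages count names, some of which hold the same reads. Depth and some markers of other cells moved with the same libraries. CR replicate 2 had the fewest reads and TB replicate 1 the next fewest (5708735). The epithelial, leukocyte, fibroblast, smooth muscle, striated muscle, erythroid and neuron lists did not move as wholes. Of the 8 epithelial markers, miR-192, miR-194 and miR-215 were lower in both libraries than in each other one, miR-200b, miR-200c and miR-429 were higher, and miR-141 and miR-200a were neither. Their sum, in which miR-215 and miR-194 are the largest terms, was lowest there, at 38722 RPM (CR replicate 2) and 49794 RPM (TB replicate 1), while miR-200c was at 2217 RPM (CR replicate 2) and 1914 RPM (TB replicate 1), against 132 to 313 RPM elsewhere. Of the leukocyte markers, miR-142 was lower, at 87.9 RPM (CR replicate 2) and 31.9 RPM (TB replicate 1), against 237 to 321 RPM, and miR-146a was higher, at 96.6 RPM (CR replicate 2) and 71.8 RPM (TB replicate 1), against 15.8 to 28.7 RPM. Of the other leukocyte markers, the most abundant name of miR-223 had only 1 read, in CR replicate 3, and no analysed name matched miR-150. The sum of the 3 fibroblast markers was highest there, at 2470 RPM (CR replicate 2) and 1600 RPM (TB replicate 1), against 481 to 782 RPM, mostly through miR-214, at 1518 RPM (CR replicate 2) and 671 RPM (TB replicate 1), against 13.6 to 22.8 RPM. miR-199b was also higher, but miR-199a, at 451 RPM (CR replicate 2) and 538 RPM (TB replicate 1), lay within the 304 to 555 RPM of the others. The hepatocyte marker miR-122 was at 328 RPM in CR replicate 2 only, against 1.55 to 7.36 RPM in every other library. Of the smooth muscle markers miR-145 was higher and miR-143 lower in both libraries. Among the striated muscle markers, miR-133a, miR-133b and miR-206 were higher and miR-1 and miR-499 lower. There miR-133a was at 822 RPM (CR replicate 2) and 907 RPM (TB replicate 1), against 64.6 to 214 RPM. By contrast miR-1 was at 85.9 RPM (CR replicate 2) and 37.7 RPM (TB replicate 1), against 384 to 473 RPM. The erythroid miR-144 was lower and the neuronal miR-124 higher, both from few reads, while miR-451 and miR-9 were neither. All 3 pancreas markers were higher, at a summed 26.0 RPM (CR replicate 2) and 53.6 RPM (TB replicate 1), against 1.11 to 4.83 RPM. They rest on few reads, in CR replicate 2 on 1 read of miR-216a, 16 of miR-216b and 22 of miR-217. In TB replicate 1 these had 8, 45 and 253 reads. The part of these markers in the levels of miR-221 and miR-222 was not tested.

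Over all tested names, 0 of 662 (0%) had an adjusted p under 0.05 between CR and TB in limma and 0 had an unadjusted p under 0.05, where edgeR and DESeq2 each gave 5 at an unadjusted p under 0.05 and 0 at an adjusted p. None of the 28 tested member names was among them. The 18 sets had log2 fold changes from -0.37 to 0.79, with 12 above 0, a median of 0.18 and an unadjusted p of at least 0.435, beside 359 of 662 above 0 and a median of 0.05 over all tested names. All 18 intervals spanned 0, and since some sets held nearly the same reads, they are not 18 separate results. Scaling by TMM moved the median of all names by -0.16, more than the fitted change of miR-221-3p or miR-222-3p. The groups did not overlap in 0 of the 18 sets, where over all tested names CR lay above TB in 0.604% and below TB in 1.66%. Without both CR replicate 2 and TB replicate 1, 3.63% of all tested names had an unadjusted p under 0.05 and 0 of the members did.

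**Figure D4:**
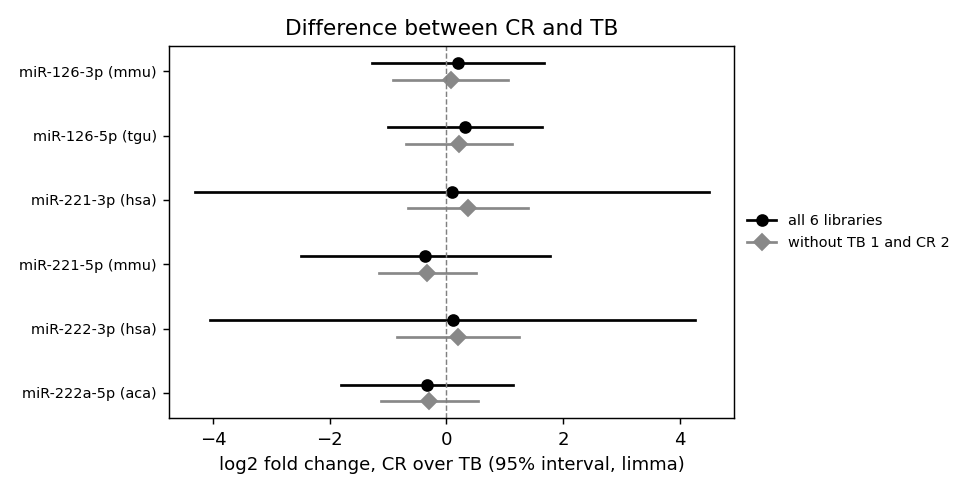
Log2 fold change of CR over TB with its 95% interval (limma) for 6 arms, from all 6 libraries (black circles) and without CR replicate 2 and TB replicate 1 (grey diamonds). All intervals include 0, and once both libraries are left out that of miR-221-3p spans -0.66 to 1.40 and that of miR-222-3p spans -0.84 to 1.24.

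Among the 11 sets with too few reads for the test, 1 lay wholly lower in CR, the platypus name oan-miR-222a-5p, where 1.43% of all detected names did so, and 0 lay wholly higher, where 0.68% did. It had 8, 0 and 3 reads in CR replicates 1 to 3 and 7, 11 and 9 reads in TB replicates 1 to 3. In RPM these were 0.702, 0 and 0.300 in CR and 1.23, 1.18 and 0.998 in TB (exact permutation over the libraries, two-sided p = 0.1, the lowest that 3 against 3 can give, and 1.0 adjusted over all detected names). The name is given because its groups did not overlap, which by itself fixes this exact p at its lowest value, so the test adds nothing to that choice. The count of 0 in CR replicate 2 allows up to 2.0 RPM (3 reads), or 2.56 RPM by the 95% Wilson interval, both above every TB value. The 95% Wilson intervals of CR replicate 1 (0.356 to 1.39 RPM) and TB replicate 3 (0.525 to 1.90 RPM) overlapped. At this depth the reads do not settle whether the groups differ. In the more abundant aca-miR-222a-5p the groups overlapped, and whether the names share reads was not tested.

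A second form of miR-222, gga-miR-222b-3p of the chicken, was rare except in 1 library. It had 0.965, 14.0 and 0.600 RPM in CR replicates 1 to 3 and 2.63, 0.857 and 0.444 RPM in TB replicates 1 to 3. The value of CR replicate 2 came from 21 reads (95% Wilson interval 9.15 to 21.4 RPM), and TB replicate 1, which was like it in hsa-miR-222-3p, had 15 reads (1.59 to 4.34 RPM). Its reads were 2.08% of those of hsa-miR-222-3p in CR replicate 2 and 1.33% to 2.75% in the other libraries, but 0.366% in TB replicate 1. The log2 fold change was 0.76 with a standard error of 0.96 (adjusted p = 0.999, limma), and 0.12 without both libraries. The medaka name ola-miR-222 was at 71.4% of hsa-miR-222-3p in CR replicate 2 and at 50.9% to 56.8% in the other libraries. The lamprey name pma-miR-221 was at 9.0% of hsa-miR-221-3p in CR replicate 2 and at 3.83% to 7.53% in the others.

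By the pattern over the 6 libraries, miR-221-3p was most like hsa-miR-30d-5p and oar-miR-30d (Pearson's r = 0.998 for both, on log2(RPM + 1)), cte-miR-31 and cel-miR-72-5p (0.997 for both) and gga-miR-181b-5p (0.996). miR-222-3p was most like the same names of miR-30d (0.999 for both), cel-let-7-5p and gga-let-7g-5p (0.997 for both) and hsa-let-7d-5p (0.997). For miR-126 (oha-miR-126-5p, the most abundant name) the nearest were ccr-miR-454b (0.940), tch-let-7a-5p (0.910), ssa-miR-26d-5p (0.906), rno-miR-1-3p (0.893) and pal-miR-454-3p (0.882). In that order their means over the 6 libraries were only 7.49, 2.24, 17.4, 0.816 and 4.90 RPM. rno-miR-1-3p had 0 RPM in CR replicate 2 and TB replicate 1. The correlations of the lowest of these names thus rest on few reads. All the nearest names were taken from 429 distinct sets of reads. The points are 6 libraries, of which CR replicate 2 and TB replicate 1 stand apart for most names, and names of 1 miRNA can share reads.

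Of 17 other miRNAs known from vessels or their growth, 14 had a name in the files, with 50 tested names in 34 distinct sets. Of these 50, 0 had an unadjusted p under 0.05 (limma) and 35 had a log2 fold change above 0, with a median of 0.17, beside 359 of 662 and a median of 0.05 over all tested names. Names that hold the same reads are counted more than once here, and of the 34 sets 24 were above 0. Scaling by TMM moved the median of all names by -0.16, about as much as the median of the 50. miR-92a (hsa-miR-92a-3p), a member of the miR-17 cluster that restrains vessel growth in mouse, had 161, 15753 and 114 RPM in CR replicates 1 to 3 and 8090, 156 and 170 RPM in TB replicates 1 to 3. miR-27b (efu-miR-27b), of a cluster with miR-23 and miR-24, had 1055, 3575 and 597 RPM in CR and 3445, 792 and 583 RPM in TB. Both were high in the same libraries as miR-221-3p. Its cluster partner miR-24 (hsa-miR-24-3p) had 309, 1751 and 221.6 RPM in CR and 1100, 315 and 231 RPM in TB. The partner from the paralogous cluster, miR-23a (efu-miR-23a), had 149, 663 and 111 RPM in CR and 575, 204 and 143 RPM in TB. miR-218 (hsa-miR-218-5p), which is encoded within the SLIT genes of vessel and axon guidance, had 488, 60.0 and 811 RPM in CR and 35.4, 547 and 641 RPM in TB, and was low where miR-221-3p was high. Neither pattern is particular to vessel miRNAs. Of all tested names, 57.3% were higher in both CR replicate 2 and TB replicate 1 than in each other library, and 21.8% were lower.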

How the data were processed

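The 3 CR and 3 TB samples are small RNA of duck duodenum, size-selected on a gel, prepared with the TruSeq small RNA kit and read on an Illumina HiSeq instrument. For every library the authors deposited RPM values, reads of a miRNA name scaled so that the 1568 names sum to 1000000, in a column headed TPM, although the methods name FPKM. The aligner, genome build, miRNA database and read filter are not given in the sources used here. All values (100.0%) were whole multiples of 1 read within 0.1 read, which gave back the reads.

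The members are the names whose part after the species prefix is miR-126, miR-221 or miR-222 with any letter or arm. The members, gene lists and tests were chosen with earlier results of these data known. For the comparison of CR with TB, log2(RPM + 1) was fitted in limma 3.58.1 (lmFit, then eBayes allowing a mean-variance trend). It covered 662 names, those reaching 10 reads in 3 or more libraries, and p-values were adjusted by Benjamini-Hochberg across them. Single names and ratios were compared with two-sided exact permutation tests, whose smallest p with 3 against 3 is 0.1. Of the single names only oan-miR-222a-5p is given with that test, and the arms are given with their limma result. For an arm, the most abundant name that carries it was used. Rows with identical reads in all 6 libraries were counted once. Names most like a member were the 5 with the highest Pearson correlation. edgeR 4.0.16 and DESeq2 1.42.0 on the recovered reads, other scalings, filters and pseudocounts, a replicate block and omitted libraries served as alternatives. The limma, edgeR and DESeq2 steps were tested on simulated data. No simulated library stood apart from the others, so that test does not measure the power in these data. R 4.3.3, Python 3.11.15, numpy 2.4.6, pandas 2.3.3 and matplotlib 3.10.9 were used.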

Additional observations from a re-analysis of the deposited data

How the results depend on the processing

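The number of names with an adjusted p under 0.05 was 0 in limma and 5 with a term for TB replicate 1 and CR replicate 2. At an unadjusted p under 0.05 it was 0 in limma, 5 with edgeR, 5 with DESeq2, 1 with a pseudocount of 10, 4 without a filter on low values, 24 without both TB replicate 1 and CR replicate 2 and 32 with the term for them. With each replicate left out, these numbers stayed 0. TB replicate 1 and CR replicate 2 were singled out from these same data. The counts with that term or without both libraries are therefore not independent of the data. Of miR-126, miR-221 and miR-222, 1 name had an unadjusted p under 0.05, with that term (oan-miR-222b-3p, log2 fold change 0.79, adjusted p = 0.872 in limma). The cause was not tested.

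For hsa-miR-221-3p the log2 fold change of 0.09 became -0.84 with edgeR, -0.70 with DESeq2 and -0.094 with TMM-scaled RPM, and omitting single replicates gave -1.29 to 1.75. For hsa-miR-222-3p the value of 0.11 became -0.53, -0.40 and -0.085, and omitting single replicates gave -1.24 to 1.55. The same omissions gave -0.17 to 0.53 for oha-miR-126-5p, -0.17 to 0.54 for mmu-miR-126a-3p and -0.93 to 0.24 for mmu-miR-221-5p. The arm balance of miR-126 as labelled differed by -0.0071, and by 0.012 with all names of an arm summed. Across omitted replicates the differences lay between -2.68 and 1.53 for miR-221, between -2.04 and 1.11 for miR-222, between -0.32 and 0.58 for miR-126 with the zebra finch name and between -0.18 and 0.20 for the ratio of miR-221 to miR-222. For that ratio the difference was 0.17 without both libraries. The other values kept their direction.

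Deviations from the group means correlated at -0.80, -0.91 and 0.91 for replicates 1, 2 and 3. TB replicate 1 and CR replicate 2, the libraries that stand apart, fall under different replicate numbers. The correlations follow that split and cannot tell whether the replicate numbers pair the samples. With a replicate block 0 names had an unadjusted p under 0.05, and the log2 fold changes, such as 0.09 for hsa-miR-221-3p, were the same by construction. Depth limits names under about 2.0 RPM, the value of 3 reads in CR replicate 2, which a count of 0 there allows.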
